A study of Mus musculus with 10 samples.

Results

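The potassium channel genes of the mouse genome carry symbols that start with Kcn, and 84 of them were measured among the 18193 genes of the array. They were chosen by symbol alone, from 167 of 45037 probe sets, each of which names 1 gene, and the brightest probe set stood for each gene. The 84 comprise 22 pore subunits of voltage-gated channels, 9 silent voltage-gated subunits, 12 accessory subunits of voltage-gated channels, 15 inward rectifiers, 12 two-pore channels, 8 subunits of calcium-activated channels, 3 sodium-activated or Slo3 channels and 3 non-coding transcripts named after channel genes. RNA came from the cerebral cortex of 5 *Crtc1*-/- mice, which lack the CREB-regulated transcription coactivator *Crtc1* in all cells, and of 5 WT littermates. All 10 mice were females of the C57BL/6N strain, 2 months old by the labels and without any treatment, and each was read on 1 GeneChip Mouse Genome array (Affymetrix), whose probe sets lie mostly near the 3' end of a transcript. Values are log2 array values as deposited, a fold change is *Crtc1*-/- minus WT on that scale, and P comes from limma with Benjamini-Hochberg adjustment over all 18193 genes, where an adjusted P under 0.05 counts as passed.

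Potassium channels let potassium leave or enter the cell and thereby set the resting potential of neurons and glia, end the action potential and govern how often a neuron fires. Voltage-gated channels open on depolarization, inward rectifiers pass current best near the resting potential and some of them are opened by G proteins or by low ATP, two-pore channels carry the steady leak, and calcium-activated channels open as calcium enters and thereby shape the pause after a spike. *Crtc1* binds CREB, which occupies the cAMP response element (CRE) in the promoters of genes driven by neuronal activity.

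The promoters of a pair of members are shown, *Kcnf1* because it had the smallest P of all Kcn genes and *Kcnn1* because it lies close to *Crtc1* on chromosome 8. They are the 250 bases before the transcription start in RefSeq (GRCm38.p6), at chr12:17176889-17177138 for *Kcnf1* and at chr8:70863259-70863508 for *Kcnn1*, both read on the minus strand from 5' to 3', and capitals mark a CRE half-site (TGACG or CGTCA).
*Kcnf1*: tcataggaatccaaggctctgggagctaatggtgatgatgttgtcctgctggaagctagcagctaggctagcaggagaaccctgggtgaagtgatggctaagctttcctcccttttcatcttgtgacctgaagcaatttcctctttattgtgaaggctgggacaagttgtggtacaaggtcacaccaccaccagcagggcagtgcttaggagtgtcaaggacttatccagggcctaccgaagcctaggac
*Kcnn1*: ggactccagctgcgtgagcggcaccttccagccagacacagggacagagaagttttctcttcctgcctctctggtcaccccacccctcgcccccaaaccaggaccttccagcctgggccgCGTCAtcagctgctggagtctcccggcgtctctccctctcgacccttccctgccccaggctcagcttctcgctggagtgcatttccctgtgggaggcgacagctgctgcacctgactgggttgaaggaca
The *Kcnf1* promoter held no CRE half-site, and the *Kcnn1* promoter held 1, which starts 130 bases before the transcription start. A second RefSeq start of *Kcnn1*, with its window at chr8:70857009-70857258, had none. Of the 84 Kcn genes, 64 matched 89 promoters in the RefSeq table. A half-site on either strand stood in 14 of the 89 (15.7%), against 17.8% of all 32851 promoters. The full palindrome TGACGTCA, which holds both half-sites, stood in 0 of the 89, against 1.55% of all promoters, and a TATA box (TATAAA or TTTATA) in 3 (3.37%, those of *Kcnj9*, *Kcnj13* and *Kcnj16*), against 12.4%. These are matches of letters in a window of 250 bases and say nothing about binding.

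The arrays were checked first against the deleted gene and the tissue. *Crtc1* read 5.96 to 6.60 in *Crtc1*-/- mice, against 9.51 to 9.86 in WT mice (log2 fold change -3.32, SE 0.12, adjusted P = 8.35e-08 from limma), and where its probe set lies relative to the deleted part was not analysed here. All 6 measured markers of cortical excitatory neurons were brighter than at least 87.2% of probe sets. Of the 6, 1 had a log2 fold change above 0, the median was -0.10, and none passed. The marker means of other cell types and regions overlapped between the genotypes except for those of the hippocampus, whose 10 measured markers averaged 6.16 to 6.34 in *Crtc1*-/- mice, against 6.36 to 6.47 in WT mice, with 2 of the 10 lower in *Crtc1*-/- mice at an adjusted P under 0.05. All 11 measured oligodendrocyte markers had log2 fold changes above 0, although none passed, and their mean ranged from 10.23 to 10.55 in *Crtc1*-/- mice, against 9.97 to 10.30 in WT mice. The 5 thalamus markers averaged 7.19 to 7.33 in *Crtc1*-/- mice, against 7.06 to 7.21 in WT mice. Of these 5 markers 4 had log2 fold changes above 0, and none passed. Since whole cortex was used, fewer cells of a type and less RNA per cell cannot be told apart.

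No Kcn gene passed the test in the cortex of *Crtc1*-/- mice. Of 84 Kcn genes 0 were lower and 0 were higher at an adjusted P under 0.05, where 0.456% of all genes were lower and 0.308% were higher. Without adjustment 8 Kcn genes (9.52%) had P under 0.05 and lay lower in *Crtc1*-/- mice, against 5.53% of all genes, and 5 (5.95%) lay higher, against 4.33% of all genes. The 8 were *Kcnf1*, *Kcnd1*, *Kcnmb4*, *Kcnk3*, *Kcnip4*, *Kcnip2*, *Kcng1* and *Kcnmb4os2*, and the 5 were *Kcns1*, *Kcnk2*, *Kcnj12*, *Kcna4* and *Kcns2*. The groups did not overlap in 2 Kcn genes, *Kcnf1* and *Kcnd1*, both lower in *Crtc1*-/- mice (2.38%, against 2.04% of all genes), and in 0 with higher values in *Crtc1*-/- mice (against 1.10% of all genes).

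**Figure D1:**
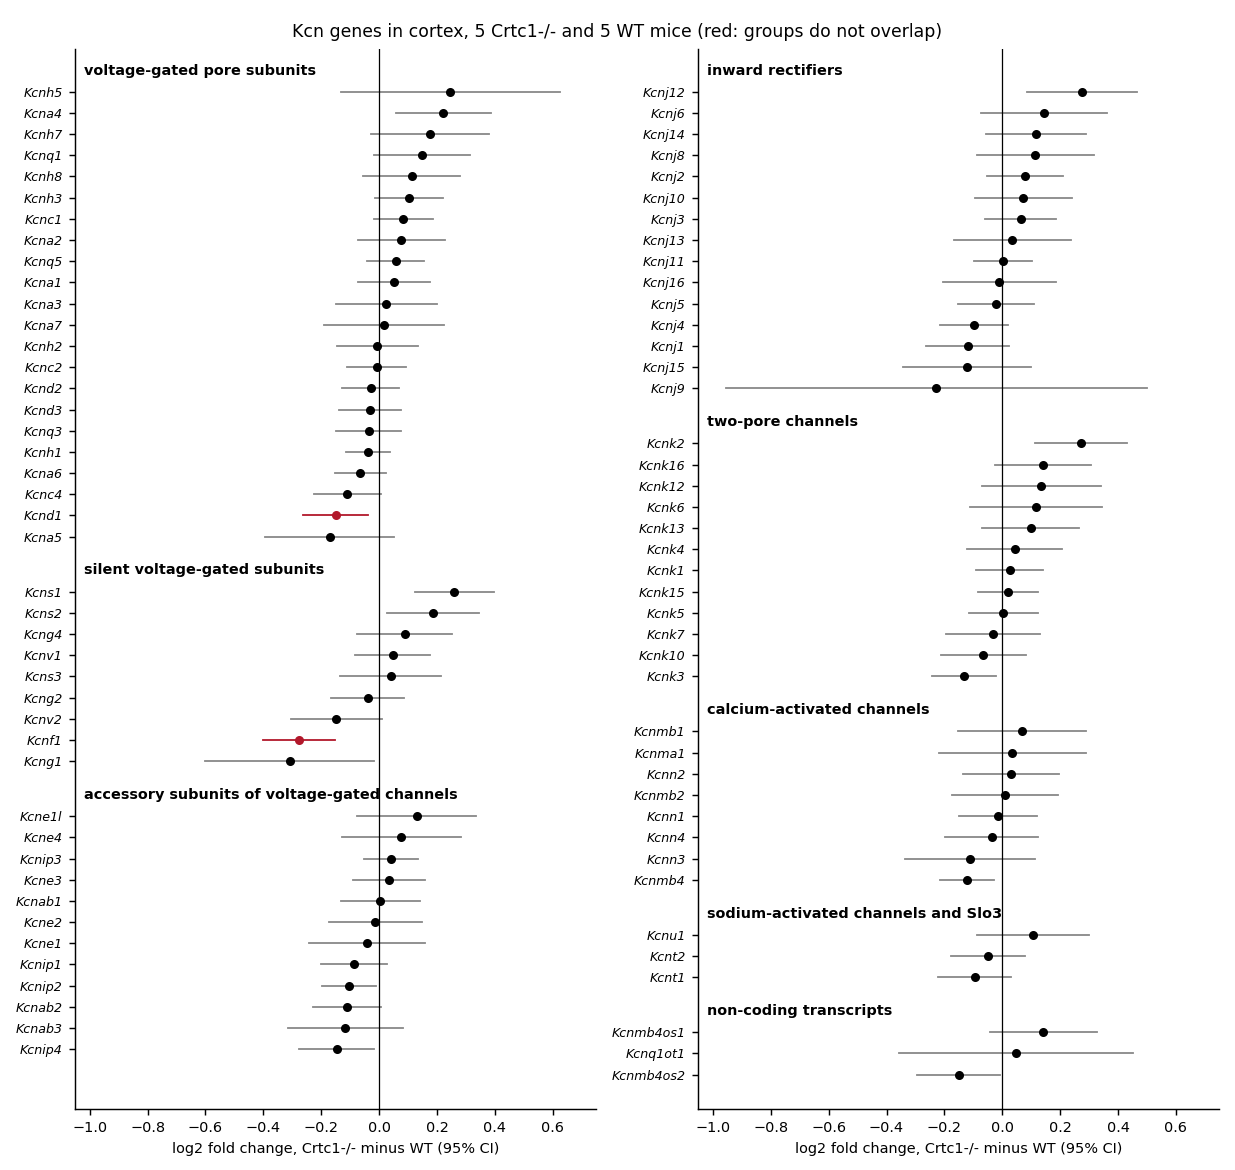
Log2 fold change (x axis, *Crtc1*-/- minus WT) of each of 84 Kcn genes (rows, by class and in descending order), with the 95% confidence interval as a line, n = 5 per genotype. Red marks *Kcnf1* (-0.28) and *Kcnd1* (-0.15), whose groups do not overlap, and the widest interval is that of *Kcnj9*, from -0.96 to 0.50.

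The differences were small in either direction. The log2 fold changes of the Kcn genes ran from -0.31 (*Kcng1*) to 0.27 (*Kcnj12*), with 37 below 0 and 47 above 0 and a median of 0.018, against -0.0030 over all genes. The median size of the difference, whatever its sign, was 0.081 for Kcn genes and 0.051 for all genes, and the median SD within a genotype was 0.12 for Kcn genes and 0.10 for all genes. For 81 of the 84 (96.4%) the 95% confidence interval lay within a 1.5-fold difference in either direction, against 98.7% of all genes. The other members were *Kcng1*, *Kcnh5* and *Kcnj9*, whose mice differed widely within a genotype. As for signal, 6 of the 84 were among the dimmest 25% of probe sets and 60 were brighter than the median probe set.

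*Kcnf1*, a silent subunit that forms no channel alone and changes the gating of other voltage-gated channels, was nearest to the threshold. It read 8.95, 9.14, 9.03, 9.08 and 8.88 in *Crtc1*-/- mice, against 9.26, 9.26, 9.20, 9.38 and 9.35 in WT mice. Every *Crtc1*-/- mouse lay below every WT mouse. *Kcnf1* averaged 9.01 ± 0.10 in *Crtc1*-/- cortex, against 9.29 ± 0.073 in WT cortex (SD over 5 mice each). The log2 fold change was -0.28 (SE 0.057, 95% interval -0.40 to -0.15), or 0.826-fold, with an adjusted P of 0.0517 from limma. A second, dimmer probe set of *Kcnf1*, 1441300_at, read 6.14, 6.37, 6.48, 6.50 and 6.31 in *Crtc1*-/- mice, against 6.78, 6.67, 6.35, 6.71 and 6.65 in WT mice. There the groups overlapped through 1 WT mouse, and the log2 fold change was -0.27 (SE 0.090). The adjusted P of *Kcnf1* fell under 0.05 in 4 of 21 other settings, which are a trended and robust variance prior (0.0120), no dim probe sets (0.0441), weighted arrays (0.0480) and the fit without *Crtc1*-/- replicate 2 (0.0453). With the hippocampal marker mean as a covariate its log2 fold change was -0.22 (adjusted P = 0.999 from limma) and with the oligodendrocyte marker mean it was -0.33 (adjusted P = 0.162 from limma).

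Other silent subunits went both ways. *Kcns1*, which is likewise silent alone, read 7.11, 7.03, 7.02, 6.97 and 6.92 in *Crtc1*-/- mice, against 6.79, 6.64, 6.79, 6.62 and 6.92 in WT mice. It was higher than all WT mice in 4 of 5 *Crtc1*-/- mice, and its log2 fold change was 0.26 (SE 0.062, adjusted P = 0.104 from limma, and 0.0453 without WT replicate 5). With the hippocampal marker mean as a covariate the difference of *Kcns1* was 0.022, and with the oligodendrocyte marker mean it was 0.21. *Kcns2*, a close relative of *Kcns1* chosen here after its values were seen, as was *Kcng1*, had a log2 fold change of 0.19 (SE 0.073, adjusted P = 0.409 from limma), and its second probe set, 1421342_at, had one of 0.24. *Kcng1* ranged from 6.66 to 7.32 in *Crtc1*-/- mice, against 7.03 to 7.57 in WT mice, so that its log2 fold change of -0.31 had an SE of 0.13 (adjusted P = 0.464 from limma). The remaining 5 silent subunits, of the *Kcng*, *Kcns* and *Kcnv* groups, lay between -0.15 and 0.089.

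**Figure D2:**
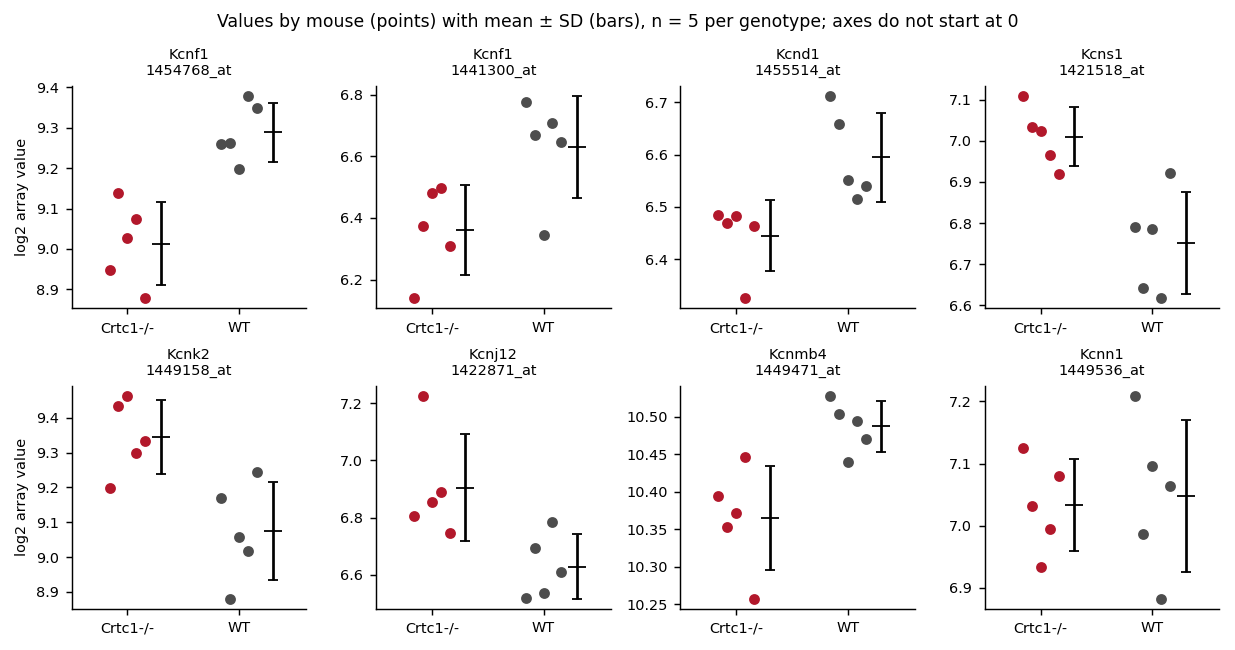
Log2 array value (y axis) of each mouse (points) at 8 probe sets of 7 Kcn genes, *Crtc1*-/- in red and WT in grey, with mean and SD as bars, n = 5 per genotype. Each *Crtc1*-/- mouse lies below each WT mouse at *Kcnf1* probe set 1454768_at and at *Kcnd1*, and the groups overlap in the other panels.

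Among the 22 pore subunits of voltage-gated channels 10 log2 fold changes lay below 0 and 12 above, with a median of 0.021. *Kcnd1*, which encodes the A-type channel Kv4.1, read 6.48, 6.47, 6.48, 6.33 and 6.46 in *Crtc1*-/- mice, against 6.71, 6.66, 6.55, 6.51 and 6.54 in WT mice. The groups lay apart, by a narrow margin, with a log2 fold change of -0.15 (SE 0.052, adjusted P = 0.321 from limma), while its dimmer probe sets 1446556_at and 1421538_at had differences of -0.022 and -0.042. *Kcna4*, the A-type channel Kv1.4 of axons, read 7.32, 7.17, 7.06, 7.16 and 7.34 in *Crtc1*-/- mice, against 6.81, 6.96, 6.94, 7.06 and 7.18 in WT mice. Its groups overlapped, with 2 *Crtc1*-/- mice above all WT mice, and the log2 fold change was 0.22 (SE 0.075, adjusted P = 0.313 from limma) and 0.082 at its other probe set.

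None of 6 channels well known in cortical neurons had an interval that left out 0 at its brightest probe set. *Kcna1* and *Kcna2*, the Kv1.1 and Kv1.2 channels that hold axons back from firing, had log2 fold changes of 0.052 (95% interval -0.071 to 0.18) and 0.076 (-0.074 to 0.23). *Kcnc1* and *Kcnc2*, the Kv3 channels that let interneurons fire fast, had log2 fold changes of 0.084 (-0.017 to 0.18) and -0.0086 (-0.11 to 0.094). *Kcnd2*, the dendritic A-type channel Kv4.2, lay at -0.030 (-0.13 to 0.069), and *Kcnq3*, a subunit of the M-current that modulators close, at -0.035 (-0.15 to 0.077). Of these 6 intervals, each from the brightest probe set, the one of *Kcna2* reached farthest from 0, to 1.17-fold. Dimmer probe sets reached farther in the fit over all probe sets. Examples are 1417416_at of *Kcna1*, to 1.23-fold, and 1422834_at of *Kcnd2*, to 1.31-fold, both with 0 inside the interval. The other probe sets of *Kcnc1* differed in sign. In the fit over all probe sets, 1423559_at had a log2 fold change of 0.20 (-0.084 to 0.49), 1456944_at one of -0.085 (-0.20 to 0.030) and 1456965_at one of 0.092 (-0.085 to 0.27). *Kcnh5*, a voltage-gated channel of the ether-a-go-go group named for its wide interval after its values were seen, ranged from 6.55 to 7.12 in *Crtc1*-/- mice, against 6.07 to 6.93 in WT mice (log2 fold change 0.25, SE 0.17).

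The 12 accessory subunits of voltage-gated channels had a median log2 fold change of -0.028, with 7 below 0 and 5 above. *Kcnip2* and *Kcnip4* encode KChIP proteins, calcium sensors that bring Kv4 channels to the membrane and tune their inactivation. *Kcnip4* ranged from 9.55 to 9.72 in *Crtc1*-/- mice, against 9.66 to 9.94 in WT mice, with a log2 fold change of -0.15 (SE 0.059, adjusted P = 0.422 from limma). *Kcnip2* ranged from 9.89 to 10.02 in *Crtc1*-/- mice, against 9.97 to 10.11 in WT mice, with a log2 fold change of -0.10 (SE 0.043, adjusted P = 0.431 from limma). The groups overlapped at both of these probe sets, and did not overlap at a second probe set of each gene, 1451840_at of *Kcnip4* (-0.11) and 1425870_a_at of *Kcnip2* (-0.19). *Kcnip3*, a KChIP that also binds DNA under the name DREAM, lay at 0.041 (-0.051 to 0.13).

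Among the 15 inward rectifiers 6 log2 fold changes lay below 0 and 9 above, with a median of 0.034. *Kcnj12*, the Kir2.2 channel that holds neurons near rest, read 6.80, 7.22, 6.85, 6.89 and 6.75 in *Crtc1*-/- mice, against 6.52, 6.70, 6.53, 6.79 and 6.61 in WT mice. It was above all WT mice in 4 of 5 *Crtc1*-/- mice, and 1 *Crtc1*-/- mouse stood well above the rest. Its log2 fold change was 0.27 (SE 0.087, adjusted P = 0.269 from limma), and leaving out each array in turn moved it between 0.19 and 0.31. *Kcnj10* and *Kcnj16*, the Kir4.1 and Kir5.1 subunits through which glia take up potassium, had log2 fold changes of 0.073 (-0.094 to 0.24) and -0.010 (-0.21 to 0.19), and the difference of *Kcnj10* was 0.043 with the oligodendrocyte marker mean as a covariate. The 7 measured astrocyte markers averaged 10.30 to 10.42 in *Crtc1*-/- mice, against 10.22 to 10.39 in WT mice. *Kcnj8*, the ATP-sensitive Kir6.1 channel of pericytes, lay at 0.11 (-0.088 to 0.32), and *Kcnj1*, best known from the kidney, was at -0.12 (-0.26 to 0.024).

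The G protein-gated inward rectifiers, which carry slow inhibition by GABA, serotonin and adenosine, include the most variable member. *Kcnj3* (GIRK1) had a log2 fold change of 0.064 (-0.058 to 0.19) and *Kcnj6* (GIRK2) one of 0.14 (-0.072 to 0.36). The dimmer probe sets of both genes differed in sign, from -0.27 to 0.059 for *Kcnj3* and from -0.085 to 0.097 for *Kcnj6*. The brightest probe set of *Kcnj9* (GIRK3), 1450712_at, read 8.70, 8.78, 9.65, 10.33 and 9.77 in *Crtc1*-/- mice, against 9.74, 8.69, 10.04, 9.95 and 9.95 in WT mice. Low values were found in 2 *Crtc1*-/- mice and 1 WT mouse, so that the SD was 0.69 among *Crtc1*-/- mice, against 0.56 among WT mice, and the log2 fold change of -0.23 had a 95% interval of -0.96 to 0.50. Another probe set of *Kcnj9*, 1426115_a_at, read 5.55, 5.32, 5.70, 6.30 and 5.93 in *Crtc1*-/- mice, against 6.20, 5.56, 6.06, 6.22 and 6.17 in WT mice. The same 3 mice were lowest there. The probe set 1428602_at read 8.77, 8.75, 8.68, 8.48 and 8.59 in *Crtc1*-/- mice, against 8.67, 8.81, 8.76, 8.73 and 8.75 in WT mice, and those 3 mice were not low there. Probe set 1433029_at ranged from 4.59 to 5.01 in *Crtc1*-/- mice, against 4.72 to 5.00 in WT mice. Where these probe sets lie on the *Kcnj9* transcripts was not analysed here.

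**Figure D3:**
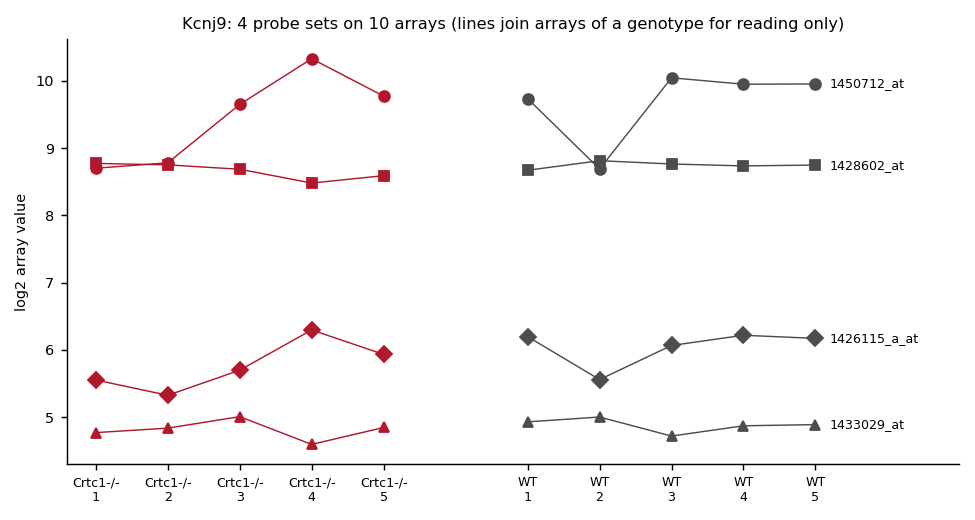
Log2 array value (y axis) of the 4 *Kcnj9* probe sets on each of the 10 arrays (x axis), *Crtc1*-/- in red and WT in grey, with a marker shape for each probe set. At 1450712_at and 1426115_a_at the *Crtc1*-/- replicates 1 and 2 and the WT replicate 2 are low, and at 1428602_at they are not. At 1433029_at these mice read 4.77, 4.84 and 5.00, where the *Crtc1*-/- mice range from 4.59 to 5.01 and the WT mice from 4.72 to 5.00.

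Among the 12 two-pore channels 9 log2 fold changes lay above 0 and 3 below, with a median of 0.034. *Kcnk2* encodes TREK-1, a leak channel opened by stretch, heat and lipids and closed through G protein-coupled receptors. It read 9.20, 9.43, 9.46, 9.30 and 9.33 in *Crtc1*-/- mice, against 9.17, 8.88, 9.06, 9.02 and 9.25 in WT mice. It was higher than all WT mice in 4 of 5 *Crtc1*-/- mice, and its log2 fold change was 0.27 (SE 0.073, adjusted P = 0.158 from limma). With the oligodendrocyte marker mean as a covariate the difference was 0.19, and with the hippocampal marker mean it was 0.15. *Kcnk3*, the acid-sensitive leak channel TASK-1, ranged from 7.20 to 7.33 in *Crtc1*-/- mice, against 7.33 to 7.57 in WT mice, and 4 of 5 *Crtc1*-/- mice lay below all WT mice. Its log2 fold change was -0.13 (SE 0.051, adjusted P = 0.391 from limma), with -0.17 at its second probe set 1426058_a_at and 0.12 at its dimmest, 1425342_a_at. *Kcnk1* (TWIK-1) lay at 0.025 (-0.089 to 0.14), and *Kcnk13* (THIK-1), a leak channel of microglia, at 0.099 (-0.069 to 0.27), while the 6 microglia markers averaged 8.76 to 8.96 in *Crtc1*-/- mice, against 8.61 to 9.07 in WT mice.

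The 8 subunits of calcium-activated channels had a median log2 fold change of -0.0026, with 4 below 0 and 4 above. *Kcnmb4*, the neuronal beta subunit that slows the large-conductance BK channel, read 10.39, 10.35, 10.37, 10.45 and 10.26 in *Crtc1*-/- mice, against 10.53, 10.50, 10.44, 10.49 and 10.47 in WT mice. It was below all WT mice in 4 of 5 *Crtc1*-/- mice, and its log2 fold change was -0.12 (SE 0.043, adjusted P = 0.334 from limma). *Kcnma1*, which encodes the pore of the BK channel, ranged from 9.92 to 10.15 in *Crtc1*-/- mice, against 9.56 to 10.35 in WT mice at its brightest probe set (log2 fold change 0.034, SE 0.12). At the dimmer *Kcnma1* probe set 1428948_at the values were 6.88, 6.80, 6.82, 6.82 and 6.90 in *Crtc1*-/- mice, against 7.22, 6.99, 6.97, 6.96 and 7.02 in WT mice. All *Crtc1*-/- mice lay below all WT mice at that probe set, with a log2 fold change of -0.19 (SE 0.056), so the probe sets of *Kcnma1* differed in sign. *Kcnn2* (SK2) and *Kcnn3* (SK3), small-conductance channels that slow firing after a burst, lay at 0.030 (-0.14 to 0.20) and -0.11 (-0.34 to 0.11).

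*Kcnn1*, the small-conductance channel SK1, is 35 genes away from *Crtc1* in the RefSeq gene order, with 34 genes between them. Of these 34 genes 19 were measured and 4 passed the test, where 0.456% of all genes passed as lower and 0.308% as higher. *Kcnn1* read 7.12, 7.03, 6.93, 6.996 and 7.08 in *Crtc1*-/- mice, against 7.21, 6.99, 7.10, 6.88 and 7.06 in WT mice. The *Crtc1*-/- values lay within the range of the WT values, and the log2 fold change was -0.015 (95% interval -0.15 to 0.12, adjusted P = 0.969 from limma). At this probe set the interval bounds the difference to between 0.901-fold and 1.087-fold. The second *Kcnn1* probe set, 1419617_at, ranged from 6.20 to 6.37 in *Crtc1*-/- mice, against 6.24 to 6.61 in WT mice (log2 fold change -0.11, SE 0.071). The 95% interval there, from -0.26 to 0.048 or 0.833-fold to 1.034-fold, reached lower. The other Kcn genes on chromosome 8 are far from *Crtc1*, and *Kcnu1*, at 600 genes away, lay at 0.11, *Kcng4*, at 1000, at 0.089 and *Kcnk1*, at 1268, at 0.025.

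Of the remaining members, *Kcnt1*, the sodium-activated channel Slack, had a log2 fold change of -0.096 (-0.22 to 0.031) at its brightest probe set. In the fit over all probe sets, its dimmer 1458428_at lay at -0.079 (-0.18 to 0.024) and 1441511_at at -0.13 (-0.25 to -0.015). *Kcnu1*, the Slo3 channel of sperm, had a log2 fold change of 0.11 (-0.088 to 0.30). The 3 non-coding transcripts lay at -0.15 (*Kcnmb4os2*, named after its values were seen, adjusted P = 0.471 from limma), 0.046 (*Kcnq1ot1*) and 0.14 (*Kcnmb4os1*). *Kcnmb4os2*, annotated as an opposite-strand transcript of *Kcnmb4*, lay on the same side of 0 as *Kcnmb4* itself (-0.12). *Kcnmb4os1*, which by its symbol is another such transcript, lay on the other side.

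The median log2 fold change was 0.021 for pore subunits of voltage-gated channels, 0.040 for silent subunits, 0.034 for inward rectifiers, 0.034 for two-pore channels, -0.0026 for calcium-activated channels and -0.028 for accessory subunits. For the classes of 3 members it was -0.050 for sodium-activated and Slo3 channels and 0.046 for non-coding transcripts. Over all genes tested the median was -0.0030, and no test between classes was run. The 2 members of a class with P under 0.05 were both lower among accessory subunits (16.7% of 12), and 1 lower and 1 higher among pore subunits and among two-pore channels. Silent subunits had 4 of 9 with P under 0.05, 2 lower and 2 higher in *Crtc1*-/- mice, which is 22.2% in each direction, against 5.53% of all genes lower and 4.33% higher. With each gene set to its WT mean, the two-pore channels averaged 0.035 to 0.065 on the 5 *Crtc1*-/- arrays and -0.050 to 0.053 on the 5 WT arrays. The inward rectifiers averaged -0.021 to 0.053 on the *Crtc1*-/- arrays and -0.045 to 0.042 on the WT arrays, and the groups overlapped in every class.

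**Figure D4:**
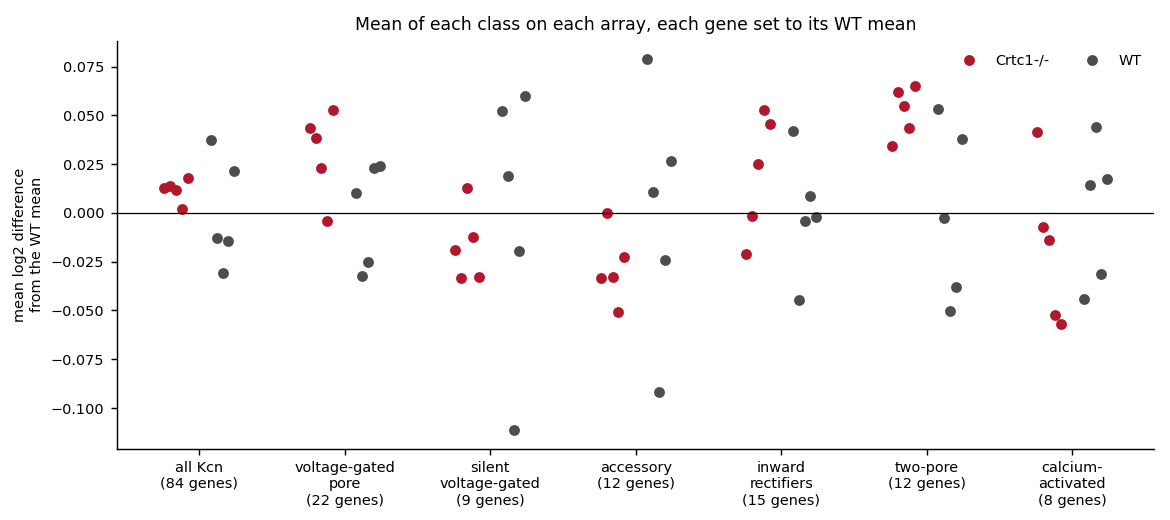
Mean log2 difference from the WT mean (y axis) over the Kcn genes of each class (x axis) on each array, *Crtc1*-/- in red and WT in grey, n = 5 per genotype. The genotypes overlap in each class, and the two-pore channels of *Crtc1*-/- mice, at 0.035 to 0.065, overlap the WT range of -0.050 to 0.053.

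Several genes were read by more than 1 probe set. Of 46 such Kcn genes, 25 had log2 fold changes of 1 sign at all their probe sets. Of the 167 probe sets 26 (15.6%) had P under 0.05 before adjustment, against 7.19% of all probe sets, with 17 lower (10.2%, against 3.92%) and 9 higher (5.39%, against 3.27%) in *Crtc1*-/- mice, and 0 passed an adjusted P over all probe sets. Probe sets of a gene share its transcripts and are not independent. More than 1 probe set with P under 0.05 was found in 5 genes, which are *Kcnf1*, *Kcnip2*, *Kcnip4*, *Kcnk3* and *Kcns2*. Neither this count nor that of genes with 1 sign was made over all genes. How far either departs from the share over all genes was therefore not tested. The groups did not overlap at 6 probe sets, those of *Kcnf1*, *Kcnd1*, *Kcnip2*, *Kcnip4* and *Kcnma1* given above and 1425089_at of the Kv3 channel gene *Kcnc4* (-0.17), chosen after its values were seen, all lower in *Crtc1*-/- mice. These 6 are 3.59% of the 167 Kcn probe sets, against 1.37% of all probe sets with the *Crtc1*-/- mice wholly lower. In the higher direction the groups were apart at 0 Kcn probe sets, against 0.713% of all probe sets.

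Channels work with partners outside the Kcn symbols, and 35 of 46 listed partner genes were measured. They are accessory and scaffold proteins, HCN channels, and the pumps and cotransporters that move potassium. None passed the test in either direction, and 5 (14.3%) lay higher at P under 0.05 before adjustment, against 4.33% of all genes. At that threshold 0 partners lay lower, against 5.53% of all genes. The smallest P was that of *Slc12a7*, a potassium-chloride cotransporter, which ranged from 5.80 to 5.94 in *Crtc1*-/- mice, against 5.48 to 5.77 in WT mice (log2 fold change 0.22, SE 0.057, adjusted P = 0.148 from limma). *Cntnap2*, which gathers Kv1 channels beside the nodes of axons, ranged from 9.25 to 9.39 in *Crtc1*-/- mice, against 9.06 to 9.28 in WT mice (log2 fold change 0.14, SE 0.048, adjusted P = 0.341 from limma), while *Kcna1* and *Kcna2* themselves lay at 0.052 and 0.076. The oligodendrocyte marker mean was above that of all WT mice in 4 of 5 *Crtc1*-/- mice, and its part in these differences was not tested.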

How the data were processed

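The authors made biotinylated cRNA from total cortical RNA with the 3' IVT Express kit, hybridized it to GeneChip Mouse Genome arrays, checked the arrays with RACE and left out arrays of high normalized unscaled standard error. The deposited file holds a log2 value for every probe set of every array; how the authors corrected background, normalized and summarized is not given in the sources used here. The range of the array medians was 0.032 in log2 units. The deposited values were used as they are, without further normalization. Of 45101 probe sets 64 controls were left out. Of the other 45037 probe sets 34945 name 1 gene, 932 several and 9160 none in the annotation of the array, and no filter on dim probe sets was applied. The probe set with the highest mean over all arrays stood for each of 18193 genes.

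*Crtc1*-/- arrays were compared with WT arrays across all genes in limma (version 3.58.1, R 4.3.3; lmFit, eBayes), P was adjusted by Benjamini-Hochberg over all genes and the threshold was 0.05. The fit was tested on simulated data first. Figures and tables were made with Python 3.11.15. With 5 arrays per genotype, their number limits the precision, and p-values measure the spread between mice. Members, lists and the choice of genes to name were made with earlier results of these data known. The text names *Kcnn1*, members past the threshold or with groups that do not overlap, the 2 members of each class with the smallest P, and members well known in cortex. Of partner genes those past the threshold and the 2 with the smallest P are named. Alternatives were quantile normalization, median centring, no dim probe sets (the lowest 25%), no _s_at and _x_at probe sets, a trended and robust prior, array weights, a replicate block by number, the mean of all probe sets, correction over probe sets, marker means of oligodendrocytes or hippocampus as covariates, and leaving out each array in turn. Other assays of the study were not used here.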

Additional observations from a re-analysis of the deposited data

Results flagged for a closer look

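In 5 of 68 groups of 5 arrays tested, 1 mouse lay far from the other 4 of its genotype, where chance gives about 1 in 20 groups. *Kcnd1* read 6.33 in *Crtc1*-/- replicate 4, and the nearest *Crtc1*-/- mouse read 6.46. *Kcnj1* read 3.70 in the same mouse, next to 3.84. *Kcnj6* read 5.81 in *Crtc1*-/- replicate 2, next to 5.51. *Kcnk3* read 7.57 in WT replicate 1, next to 7.39, and *Kcnj9* read 8.69 in WT replicate 2, next to 9.74. Without these mice none of the 5 genes passed the test.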

How the results depend on the processing

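The count of Kcn genes lower in *Crtc1*-/- mice, 0 as reported, was 1 (*Kcnf1*) without dim probe sets, with a trended and robust prior and with array weights. With 1 array left out it was 0 to 1, the 1 being *Kcnf1* without *Crtc1*-/- replicate 2. The count of higher genes was 0 to 1, the 1 being *Kcns1* without WT replicate 5. No other of the 21 settings gave a call, and the partner genes gave 0 throughout. No pairing by the labels' replicate numbers was seen in the values. Same-numbered arrays correlated between -0.26 and 0.060, and 1 of 5 correlated best with its own number. Whether same-numbered mice were littermates or handled together cannot be decided from these correlations. With the replicate block 0 Kcn genes passed, and *Kcnf1* had an adjusted P of 0.182 from limma. Over all genes the calls, 83 lower and 56 higher as reported, were 148 and 88 with the trended and robust prior, 36 and 26 with the replicate block, 32 and 22 with the oligodendrocyte covariate and 6 and 5 with the hippocampal covariate. Both covariates differ with genotype, which by construction leaves these fits less to test. Signal limits at least the 6 Kcn genes among the dimmest 25% of probe sets. Some genes above that cut were dim as well, such as *Kcnj1*, brighter than 29.6% of probe sets, and *Kcnn3*, brighter than 36.4%.

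Of 672 pairs of a named Kcn gene and a setting, 640 kept the sign of the log2 fold change. The sign turned with the hippocampal covariate for *Kcnip4* (0.0042), *Kcnc1* (-0.061), *Kcnj3* (-0.022), *Kcna2* (-0.16), *Kcnip3* (-0.041), *Kcna1* (-0.066), *Kcnj9* (0.33), *Kcnn2* (-0.091) and *Kcnma1* (-0.049). With the oligodendrocyte covariate it turned for *Kcnma1* (-0.099), *Kcnn1* (0.048) and *Kcnj16* (0.093). With the mean of all probe sets it turned for *Kcnk13* (-0.011), *Kcnj3* (-0.031), *Kcnip3* (-0.0053), *Kcnd2* (0.016) and *Kcnma1* (-0.050). Array weights gave 0.0061 for *Kcnn1* and 0.00060 for *Kcnj16*, and quantile normalization gave 0.0038 for *Kcnc2* and 2.5e-05 for *Kcnj16*. With each array left out in turn, the log2 fold change ran from -0.0046 to 0.062 for *Kcnk1*, from -0.019 to 0.084 for *Kcnn2*, from -0.076 to 0.12 for *Kcnma1*, from -0.056 to 0.026 for *Kcnn1*, from -0.029 to 0.017 for *Kcnc2* and from -0.081 to 0.050 for *Kcnj16*. None of these values passed the test, and the causes were not tested.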
